A study of Parhyale hawaiensis with 10 samples.

Results

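In the amphipod crustacean Parhyale hawaiensis, 1224 regions of the genome were called accessible in all 3 libraries of adult legs and in none of the 6 embryonic libraries. They are called adult-only regions here, and 259017 regions lay on the same class of scaffolds, so that 0.473% of regions met the rule. The rule merged the peaks of the 9 libraries made from nuclei, took a region as called in a library when a peak overlapped it by at least 1 bp, and kept scaffolds on which the largest peak end in any list was at least 10000 bp. A further 39 regions met the rest of the rule on shorter scaffolds, for 1263 of 280946 merged regions in all. Accessibility was measured by ATAC-seq in the Chicago-F inbred line. The embryonic libraries were 3 single whole embryos, at stages 20, 23 and 24, and 3 libraries of developing T4 to T8 legs, each of 30 to 40 legs pooled from embryos at stages 25 to 26. The adult libraries were 3 samples of uninjured T4 and T5 legs, so that age and the set of legs taken differ together. The remaining library was made from purified DNA of a whole adult, without chromatin, and the rule did not use it.

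ATAC-seq uses the transposase Tn5, which inserts sequencing adapters where DNA is not wrapped in nucleosomes or covered by other proteins. Such open sites include promoters, which lie at the starts of genes, and enhancers, which may lie far from the genes they act on and are often open in some tissues or life stages and closed in others. A thoracic leg of an embryo at these stages is still developing, whereas an adult leg is a finished appendage with muscle, nerve, blood cells and cuticle-secreting epidermis. In a sample of many nuclei, a site open in more of the nuclei and a site more open in each nucleus cannot be told apart. No genome sequence or gene annotation was used here, so the regions are given by scaffold and position, without neighbouring genes or sequence.

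Adult regions were more often absent from every embryonic library than from all but 1 of them. Of the 19536 regions called in all 3 adult leg libraries, 6.27% were adult-only. A region called in exactly 1 of the 6 embryonic libraries was less frequent, with 730 regions, as was one called in exactly 2, with 879. From there the numbers rose through 1826, 3302 and 4219 to the 7356 regions called in all 6. The order of the first 3 numbers was the same with only peaks of a q-value of at most 1e-05 (881, 410 and 487 regions with 0, 1 and 2 embryonic libraries) and with lists trimmed to equal length (1923, 944 and 1121).

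**Figure D1:**
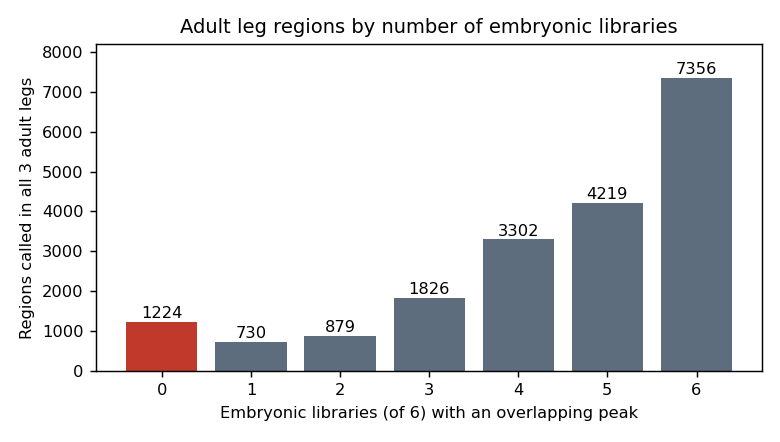
Regions called in all 3 adult leg libraries (y axis, number of regions) by how many of the 6 embryonic libraries held an overlapping peak (x axis). The adult-only regions, in red, number 1224, against 730 with 1 embryonic library and 7356 with all 6.

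The regions just outside the rule were mostly lost to the longest embryonic lists. Of the 730 adult regions with a single embryonic call, 273 (37.4%) had it in embryonic leg 3, whose list is the longest of the legs at 119487 peaks. The stage 24 embryo, with 119994 peaks, accounted for 130, embryonic leg 2 for 118, embryonic leg 1 for 97, and the embryos of stages 23 and 20 for 59 and 53. These single embryonic peaks were weak: their median −log10 q ran from 1.84 at stage 20 to 5.66 at stage 24. Inside the rule, the lowest −log10 q of any adult peak was 1.305, at phaw_50.283865d 7352773 to 7353264 in adult leg 3, where the same region reached 8.14 in adult leg 1 and 5.66 in adult leg 2. The scaffold limit fell in a wide gap, with the nearest adult-only region on a scaffold whose peaks end at 12459 bp (phaw_50.000972, 12024 to 12459) and the nearest one left out on a scaffold whose peaks end at 6572 bp (phaw_50.002440, 38 to 340).

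The rule also depends on agreement among adult legs. Regions called in no embryonic library numbered 31643 with 1 adult leg library, 2661 with 2 and 1224 with all 3. The pairs were uneven: 460 of the 2661 lacked adult leg 1, 1159 lacked adult leg 2 and 1042 lacked adult leg 3. Adult legs 2 and 3 had the shorter lists, 49502 and 48324 peaks, against 76268 in adult leg 1. When adult leg 2 was left out of the rule the count rose to 2389, and without adult leg 3 it rose to 2264. It fell to 566 when every adult peak had to have a q-value of at most 1e-05 while the embryonic lists were kept whole, and rose to 1923 with lists of equal length. In the opposite direction, 3168 regions were called in all 3 embryonic legs and in neither an adult leg nor a whole embryo, which is 6.99% of the regions called in all 3 embryonic legs.

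Calls in left-out leg libraries were used to describe whether adult-only calls recur. For each pair of 1 adult and 1 embryonic leg library left out, regions were chosen that were called in both other adult legs, in neither other embryonic leg and in no whole embryo, which gave 1808 to 2923 regions. Left-out adult legs 1, 2 and 3 called 73.6%, 51.1% and 54.2% of them, whereas left-out embryonic legs 1, 2 and 3 called 7.40%, 8.62% and 17.6%. Every adult value lay above every embryonic one. The means were 59.6% ± 12.2 and 11.2% ± 5.56 (SD, n = 3 each), a difference of 48.4 percentage points, and the exact two-sided permutation p was 0.1, the smallest that 3 libraries against 3 allow. Over all regions on these scaffolds the order was the other way, since the adult legs called 26.4%, 16.5% and 16.1% and the embryonic legs 30.6%, 27.2% and 42.5%. The values of different libraries are not fully independent, because they share the libraries that did the choosing. Each chosen set also held all the adult-only regions, and peaks of the left-out libraries had helped set the region edges. The difference therefore describes calls that the rule itself used and is not separate support for it. With 1 adult library taken out beforehand, so that a single one was left to choose the regions, the difference was 10.4, 12.3 and 10.7 percentage points without adult leg 1, 2 and 3.

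In strength, adult-only regions stood in the upper middle of the adult lists, but below the regions called in all 3 adult legs as a whole. Strength is given as the authors' fold, read here as the summit pileup plus 1 over the expected pileup plus 1. Because folds of separate lists are not on a common scale, the percentile of the fold within its own list is also given. The median adult-only region stood at percentile 61.8 in adult leg 1, 65.5 in adult leg 2 and 59.8 in adult leg 3. The median over all 19536 regions called in the 3 adult legs was 79.6, 73.9 and 73.4. Regions called in all 6 leg libraries, called leg-wide regions here, stood at 83.3, 77.3 and 77.6. Regions called in the adult legs and in a whole embryo but in no embryonic leg, 356 in number, stood at 58.9, 57.5 and 58.2. Strength took part in the choice, since a weak site is more readily missed in 6 libraries and a strong site more readily called in all 3. These values are a description.

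**Figure D2:**
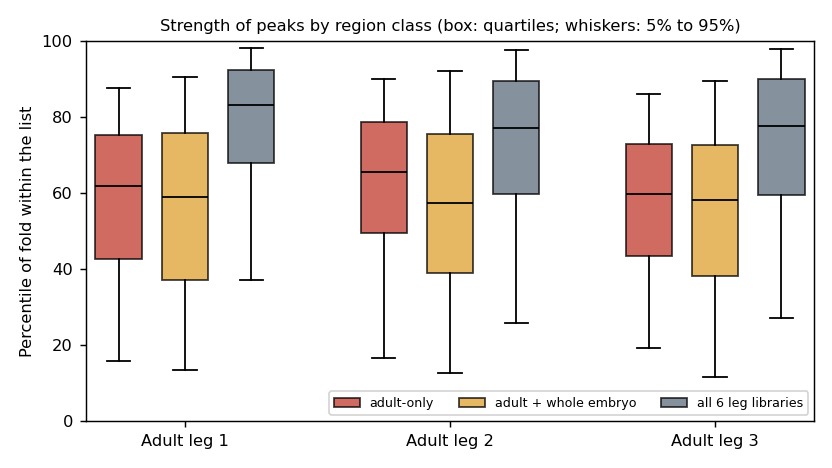
Percentile of the authors' fold within its own list (y axis) for peaks in adult legs 1 to 3 (x axis), by region class; boxes show quartiles with the median, whiskers the 5% and 95% points. Adult-only regions have medians of 59.8 to 65.5 and leg-wide regions of 77.3 to 83.3.

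The pileup behind these folds could be recovered as whole numbers of stacked reads or fragments. In adult-only regions the median summit pileup was 17 in adult leg 1 (quartiles 11 and 26), 15 in adult leg 2 (9 and 23) and 10 in adult leg 3 (7 and 15). In leg-wide regions it was 35, 20 and 15. Adult leg 3 had the lowest genome-wide background pileup of the adult libraries, 0.252 against 0.482 and 0.451. It gave the lowest pileup of the 3 in 799 of the 1224 regions. The expected pileup around the summits had medians of 1.41, 1.19 and 0.762 in adult legs 1 to 3. That is 2.93, 2.64 and 3.02 times the background. Over all peaks of those lists it was 1.91, 1.51 and 1.68 times, and in leg-wide regions 4.14, 2.83 and 3.44 times. The background value itself was found in 7.03%, 8.09% and 6.62% of adult-only peaks, against 28.1%, 27.0% and 22.2% of peaks in regions shared with whole embryos alone. In leg-wide regions it was 5.11%, 6.41% and 4.36%. The lowest pileup of any embryonic peak was 3 at stage 23 and 4 in the other 5 libraries, with backgrounds of 0.233 to 0.555, and more is needed where the expected pileup is higher. The lists give no pileup where no peak was called, so the embryonic signal at adult-only regions was not measured.

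Individual regions were called with uneven strength by the 3 adult libraries. The fold percentile was at least 50 in all 3 libraries in 548 regions (44.8%), at least 75 in 94, at least 90 in 4, and under 50 in all 3 in 110. Among leg-wide regions 71.2% reached 50 in all 3. Across the 1224 regions the folds of 2 libraries had a Spearman correlation of 0.430 (adult legs 1 and 2), 0.402 (1 and 3) and 0.465 (2 and 3), against 0.551, 0.728 and 0.680 across the 15184 leg-wide regions. Both sets were chosen on these libraries and their ranges of fold differ, so the correlations are given without a test. The highest percentile fell to adult leg 2 in 542 regions, to adult leg 1 in 380 and to adult leg 3 in 302.

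The summits of the 3 adult libraries lay within a median span of 50 bp, and in 77.8% of adult-only regions within 100 bp. The rule bounds this span, because the 3 adult peaks had to fall in 1 merged region. The span narrowed with strength, from 77 bp in the 317 regions with a mean percentile of 25 to 50, through 49 bp in the 656 regions from 50 to 75, to 26 bp in the 213 regions above 75. Leg-wide regions of those ranges had spans of 116, 65 and 26 bp. They were also wider there, with median widths of 563, 565 and 617 bp against 343, 367.5 and 410 bp. Over all leg-wide regions the median span was 42 bp, below that of adult-only regions, and 56.0% against 50.3% had their summits within 50 bp. Adult-only regions were compact, with a median width of 364 bp (quartiles 284 and 480) against 594 bp in leg-wide regions, and 1060 of them (86.6%) had a single summit in every adult library. Part of the difference in width is set by construction, because a leg-wide region is the union of peaks from more libraries. The peaks themselves also differed, with a median width of 296 bp in adult leg 1 at adult-only regions and 449 bp at leg-wide regions.

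The 12 leading regions were those whose lowest percentile in the 3 adult lists was highest. They had mean folds of 12.7 to 18.7, and their 3 summits lay 4 to 46 bp apart. The first was phaw_50.283562c 490570 to 490863, a region of 294 bp. It had summit pileups of 72, 55 and 31 over expected pileups of 2.83, 1.74 and 1.23 in adult legs 1 to 3, and folds of 19.1, 20.4 and 14.3. It stood at percentile 94.5 or higher in every adult list, and its nearest embryonic peak lay only 419 bp away. The second was phaw_50.020523d 15827747 to 15828311. Its pileups were 51, 83 and 34 and its folds 15.4, 20.4 and 13.5, with the 3 summits 4 bp apart. The third, phaw_50.282275b 6322789 to 6323200, was the most even of the first 3, with folds of 15.1, 13.6 and 13.2 from pileups of 48, 29 and 31. The highest mean fold belonged to phaw_50.283821 4023321 to 4023621, at 18.7 ± 6.64 (SD, n = 3), with folds of 25.6, 12.4 and 18.0 and pileups of 52, 17 and 26. This region varied by a factor of about 2 among libraries, and its lowest value, in adult leg 2, still stood at percentile 89.0. A further region of scaffold phaw_50.020523d, at 10940479 to 10940803, had folds of 16.4, 17.9 and 10.8. On phaw_50.283826, the region at 54893665 to 54894019 was stronger in adult legs 2 and 3, with folds of 18.8 and 19.1, than in adult leg 1, with 12.4.

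**Figure D3:**
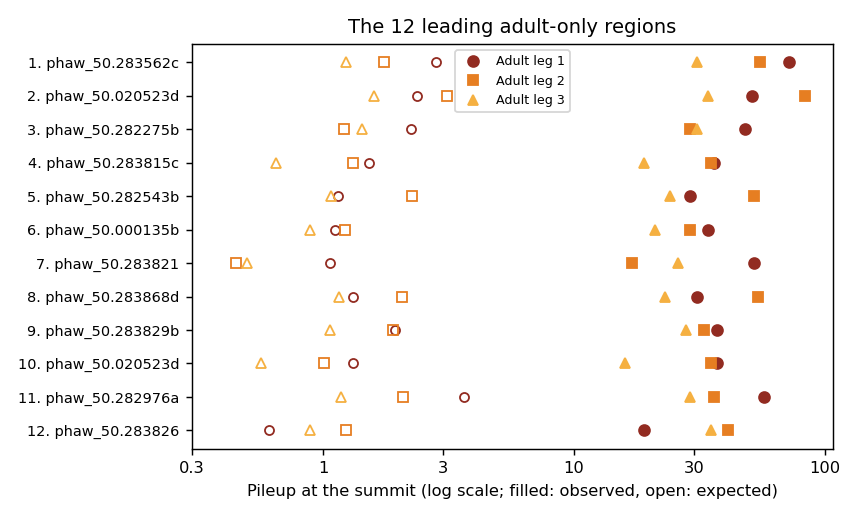
Summit pileup (filled symbols) and expected pileup (open symbols) on a log axis for the 12 leading adult-only regions, 1 row each, named by scaffold, in adult legs 1 to 3. Observed pileups of 16 to 83 stand clear of every expected pileup in the same row.

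Other regions were uneven or near the limit of calling. The widest range of fold percentiles, 88.4 points, was at phaw_50.007301a 7376119 to 7376553, with pileups of 7, 29 and 30 and folds of 3.13, 10.5 and 12.5 in adult legs 1 to 3. Adult leg 1 was low there and the other 2 libraries were high. At phaw_50.283874c 2007884 to 2008127 the pileups were 13, 20 and 3, so that adult leg 3 had the lowest pileup at which it called any peak. The widest region, phaw_50.283743b 185573 to 187162, covered 1590 bp and had folds of 11.3, 7.27 and 6.49. The next 4 in width were 1268, 1020, 1013 and 1005 bp wide, with mean folds of 4.94 to 6.86.

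Naked DNA showed where Tn5 cuts without chromatin, and the rule did not use it. A naked DNA peak overlapped 181 adult-only regions, or 14.8% (95% Wilson interval 12.9% to 16.9%). The share was 28.6% (27.9% to 29.3%) in leg-wide regions, 36.2% (31.4% to 41.4%) in regions shared with whole embryos alone and 9.28% (8.32% to 10.3%) in the embryonic-leg-only regions of the opposite rule. The difference from leg-wide regions was −13.8 percentage points. Regions called in no embryonic library had similar shares with 1 adult leg library, 16.2% (15.8% to 16.6%), and with 2, 16.3% (15.0% to 17.8%). Regions of all 3 adult legs with exactly 1 embryonic call had 15.3% (12.9% to 18.1%). A share of this size was therefore not particular to the adult-only regions. Width moved with it: in regions of 300 to under 400 bp the share was 16.0% (12.5% to 20.2%) of adult-only and 15.8% (14.0% to 17.7%) of leg-wide regions, and in those of 400 to under 500 bp it was 13.2% (9.52% to 18.1%) and 18.4% (17.1% to 19.9%). The intervals were apart only at 500 bp or more, at 19.7% (15.3% to 24.9%) and 33.6% (32.7% to 34.5%). That range has no upper limit and held 264 adult-only and 10509 leg-wide regions. Widths were not matched within it, and the part of width in that difference was not tested. By mean fold percentile, the adult-only and leg-wide shares were 21.1% (11.1% to 36.3%) and 38.9% (30.8% to 47.6%) below 25, and 18.3% (14.4% to 22.9%) and 36.2% (33.8% to 38.6%) from 25 to 50. They were 11.9% (9.63% to 14.6%) and 29.3% (28.1% to 30.5%) from 50 to 75, and 17.4% (12.9% to 23.0%) and 26.5% (25.6% to 27.5%) above 75. The adult-only share was the lower in all 4 ranges, with intervals that overlapped below 25. Regions are not independent samples, and the intervals cover counting error only. By this measure 1043 adult-only regions had no naked DNA peak.

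**Figure D4:**
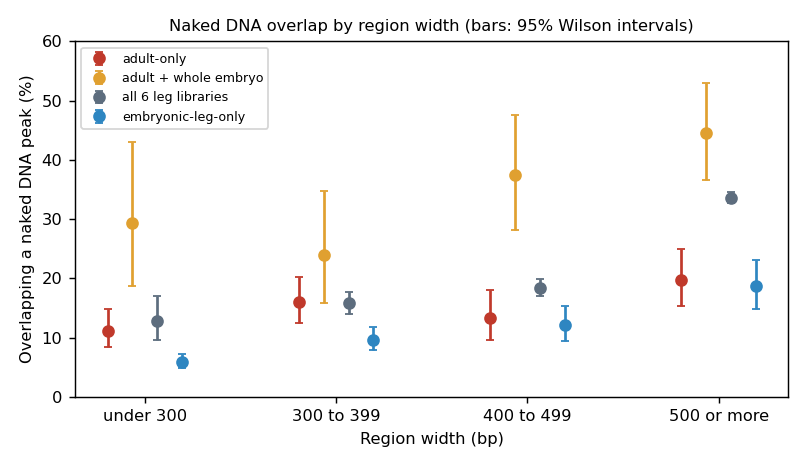
Share of regions overlapping a naked DNA peak (y axis, percent, with 95% Wilson intervals) by region width (x axis, bp) and region class. Adult-only and leg-wide regions have overlapping intervals below 500 bp and are apart at 500 bp or more, at 19.7% and 33.6%. That last range has no upper limit, and widths are not matched within it.

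Where naked DNA did overlap an adult-only region, its peak was typical in strength for the naked DNA list, at a median percentile of 47.8. The median fold of those naked DNA peaks was 2.65, close to the median of 2.70 over the whole naked DNA list, against 3.93 at leg-wide regions and 5.56 at regions shared with whole embryos alone. Embryonic-leg-only regions were alike in this, with a median of 2.62. Of the 181, 16 (8.84%) had a naked DNA peak at percentile 90 or above of its list. That is close to the share of the whole list that this percentile sets by definition. The same share was 46.9% at leg-wide regions, 55.8% at regions shared with whole embryos alone and 6.46% at embryonic-leg-only regions. Those 16 had median pileups of 7, 9 and 5 in adult legs 1 to 3, against 17, 15 and 10 in the 1043 regions without a naked DNA peak. Their median fold percentiles were 37.3, 60.9 and 42.6 against 61.8, 65.7 and 60.2, so that the medians were closer in adult leg 2 than in the other 2 libraries. The highest naked DNA fold, 21.6, was at phaw_50.282654a 3140036 to 3140561, where the adult pileups were 4, 8 and 3 and the 3 adult summits lay 242 bp apart. It was followed by phaw_50.282861e 2059712 to 2060011, with a naked DNA fold of 20.3 and adult pileups of 5, 7 and 4. At both, the expected pileup was the genome-wide background in every adult library. The part that cutting bias plays at these regions was not tested. Of the 12 leading regions, 5 overlapped a naked DNA peak, against 14.8% of all adult-only regions. The naked DNA folds of those 5 were 2.12 to 2.94, at percentiles 6.30 to 63.2 of the naked DNA list.

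Adult-only regions were spread over the genome. They were found on 153 scaffolds, and 83 of them (6.78%, 95% Wilson interval 5.50% to 8.33%) had another adult-only region within 10 kb, in 38 pairs, 1 group of 3 and 1 group of 4. The same share was 10.5% among the 3168 embryonic-leg-only and 29.6% among the 15184 leg-wide regions, and it depends on how many regions a class has. The nearest region of any kind was at a median of 2.06 kb, against 1.98 kb for embryonic-leg-only and 3.42 kb for leg-wide regions. The nearest embryonic peak was at a median of 2.39 kb (quartiles 1.12 and 5.61 kb), and 268 regions (21.9%, 19.7% to 24.3%) had one within 1 kb. That share fell to 12.2% with lists of equal length and to 13.2% with peaks of a q-value of at most 1e-05. Only 11 regions lay within 100 bp of an embryonic peak, so for few of them would a small shift of an edge have changed the call. Of the 1220 with an embryonic peak on their scaffold, the farthest from one was phaw_50.283873b 8517710 to 8518088, with pileups of 9, 15 and 4, at 91.9 kb, and its nearest region of any kind was 49.8 kb away. The next 4 were 40.3 to 50.7 kb from one.

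Over the genome the share of adult regions that were adult-only varied about the 6.27% of all scaffolds. On the 72 scaffolds with at least 100 adult regions the share had a median of 6.23% and quartiles of 4.87% and 8.37%, and every one of them held an adult-only region. The lowest share was 3 of 221 regions on phaw_50.283562a, or 1.36% (0.463% to 3.91%), and the highest was 17 of 116 on phaw_50.283868b, or 14.7% (9.36% to 22.2%). The largest number, 43 of 447, was on phaw_50.283850a, at 9.62% (7.22% to 12.7%). The Wilson interval lay above the overall share on 11 of the 72 scaffolds and below it on 2.

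In 3 windows of 100 kb there were 5 adult-only regions each, more than in any other. At 12.3 to 12.4 Mb of phaw_50.283868b, the 5 regions spanned 47.2 kb. Their folds in adult leg 1 were 10.7, 14.5, 14.4, 10.4 and 11.2, in order of position, all higher than in adult leg 2, which had 5.71, 7.56, 8.47, 8.50 and 6.05. Adult leg 3 had 6.13, 8.98, 10.2, 9.96 and 4.87. The same window held 9 regions called in embryos alone, 2 called in both ages and no leg-wide region, and embryonic sites lay between the adult-only ones. At 17.9 to 18 Mb of phaw_50.283850a the setting was different: beside the 5 adult-only regions lay 14 regions called in 1 or 2 adult legs and no embryonic library, 3 called in both ages and 2 called in embryos alone. The strongest of its 5, at 17953997 to 17954453, had folds of 12.1, 17.1 and 12.6, and 2 of the 5 overlapped a naked DNA peak. In the third window, at 24.9 to 25 Mb of phaw_50.283829a, the 5 regions were spread over 87.8 kb, and the strongest, at 24990164 to 24990915, had folds of 12.96, 11.5 and 8.80.

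**Figure D5:**
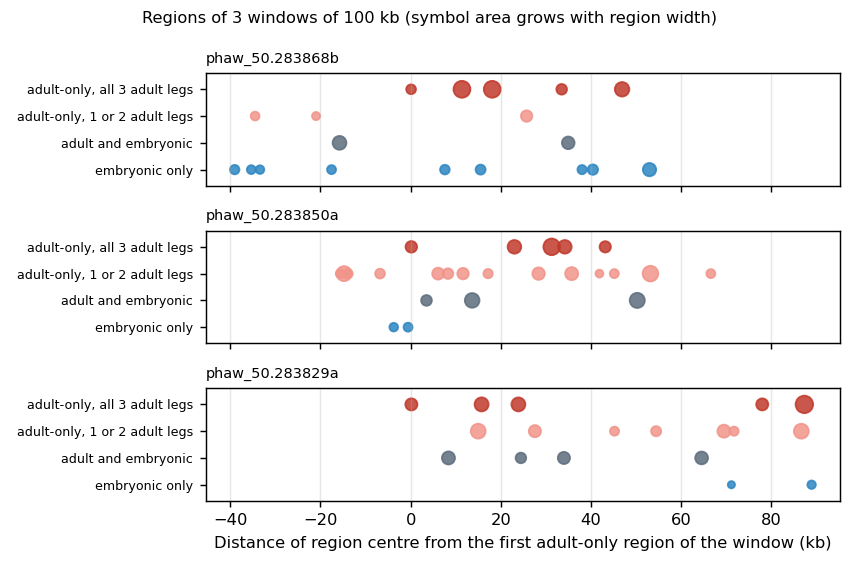
Regions in the 3 windows of 100 kb with 5 adult-only regions each, by distance from the first adult-only region (x axis, kb) and by the libraries that called them (rows); symbol area grows with region width. The window on phaw_50.283850a holds 14 regions called in 1 or 2 adult legs alone and 2 called in embryos alone, and the window on phaw_50.283868b 3 and 9.

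The sequence around adult-only regions was not adult-only in its calls. Within 10 kb on either side, not counting the region itself, there were on average 1.41, 0.792 and 0.763 peaks of adult legs 1 to 3 and 1.32, 1.29 and 1.76 peaks of embryonic legs 1 to 3. Divided by the same number around leg-wide regions, the ratio was 1.13 ± 0.0400 in adult legs and 1.12 ± 0.0513 in embryonic legs (SD, n = 3 each). The difference of 0.0126 was below the SD of each group, and the two-sided exact permutation test gave p = 0.6. It depended on distance and on the regions compared. With flanks of 5 kb it was −0.260 and with flanks of 50 kb 0.0981, with p = 0.1 by the same exact test (n = 3 each), and against all regions of the adult legs it was −0.00222. It was 0.114 with peaks of a q-value of at most 1e-05, 0.0783 with lists of equal length, 0.0737 without regions that overlap naked DNA and 0.0785 without those within 1 kb of an embryonic peak, again with p = 0.1 by the exact test (n = 3 each). Without embryonic leg 1 or 2 it was −0.00293 and −0.0178. By distance, the ranges overlapped at 0 to 2 kb (1.27 to 1.35 in embryonic legs against 0.988 to 1.29 in adult legs). Embryonic leg ratios exceeded adult ratios at 2 to 5 kb (1.59 to 1.70 against 1.305 to 1.43). Adult ratios exceeded embryonic leg ratios at 5 to 10 kb (1.04 to 1.09 against 0.852 to 0.952). They also did so at 10 to 20 kb (1.03 to 1.10 against 0.909 to 0.965). The order was the same at 20 to 50 kb (1.05 to 1.06 against 0.928 to 0.954). It was the same again at 50 to 100 kb (1.03 to 1.07 against 0.932 to 0.958). The local expected pileup in adult libraries moved with the compared class too, at 2.83 to 4.14 times the background in leg-wide and 2.64 to 3.02 times in adult-only regions, and its part in the nearby ratios was not tested. The region nearest to an adult-only region had been called in embryos alone in 50.4% of cases, in both ages in 33.0% and in adult legs alone in 16.6% (14.6% to 18.8%). For leg-wide regions these shares were 47.1%, 40.0% and 12.98% (12.5% to 13.5%), and for regions shared with whole embryos alone 52.3%, 29.4% and 18.4% (14.7% to 22.7%). Of all regions on these scaffolds, 62.4% had themselves been called in embryos alone, 23.9% in both ages and 13.7% in adult legs alone. Those 3 values give the make-up of the regions, and nearest neighbours of all regions were not examined.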

How the data were processed

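The 10 peak lists were used as deposited, 1 per library. Per the submitters' processing notes, the tools included MACS2 2.2.7.1, Picard, Bowtie2 2.5.4, bedtools 2.31.1 and SAMtools 1.21, with no role or order. Genome build, control and calling threshold: not given in the sources used here. The deposited fold of a peak is a ratio, and the deposited p-values and q-values are −log10 values, with a lowest −log10 q of 1.301 to 1.305 over the lists. The deposited score was not used. Pileups were solved from fold and p-value as whole numbers for 99.6% to 100% of peaks of a library (tolerance 0.002 in −log10 p, wider for large values); whether they count reads or fragments is not stated, and the list of the stage 24 embryo, whose narrowest peak is 200 bp, may be on another scale. Read totals are unknown.

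Rows with the same interval were 1 peak, represented by its summit of lowest p-value. Overlaps were computed with scipy 1.17.1, pandas 2.3.3 and numpy 2.4.6 under Python 3.11.15, tested on simulated data and checked against bedtools 2.31.1. The regions, the classes and the lists were chosen with earlier results of these data known, and the flank measure was added after the lists were examined. Named regions were the 12 with the highest lowest percentile, those of the 3 fullest windows, the 5 widest, the 5 with the strongest naked DNA peak, the 5 farthest from an embryonic peak, the 3 with the widest range of percentiles, and those at the edges of the rule. Shares carry 95% Wilson intervals; library values were compared by exact two-sided permutation. No label ties replicates to separate animals, and the p-values therefore cover the spread between these samples alone, which may be technical. Alternatives were stricter q-values, equal list lengths, a larger overlap, removal of regions with naked DNA peaks, other scaffold limits and leaving out each library.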

Additional observations from a re-analysis of the deposited data

How the results depend on the processing

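The number of adult-only regions was 566 with q-values of at most 1e-05 in adult lists alone and 1923 with every nuclei list cut to its strongest 48324 peaks; leaving out 1 library gave 1277 to 2389. The naked DNA share was 10.9% where the overlap had to cover 50% of the shorter interval, and 14.0% to 17.0% over the left-out libraries; it has no value once regions with naked DNA peaks are removed. Its difference from leg-wide regions was −11.4 percentage points with q-values of at most 1e-05, −10.5 with equal lists, −11.5 on scaffolds of at least 1 Mb, −17.75 without a scaffold limit, and −14.7 to −11.7 over the left-out libraries. The share within 10 kb of another adult-only region was 5.13% without regions that lie within 1 kb of an embryonic peak, a setting chosen after seeing the data, and 6.59% to 9.71% over the left-out libraries. The share within 1 kb of an embryonic peak was 13.2% with q-values of at most 1e-05, 12.2% with equal lists and 18.6% to 24.0% over the left-out libraries. The difference in left-out calls was positive in every alternative run, from 10.4 to 47.0 percentage points over the left-out libraries. The chosen regions always include the adult-only ones, which by the rule are called in adult and not in embryonic legs. Its sign is therefore partly set by the rule and is not separate support. The flank difference, whose alternatives were all chosen after seeing the data, was −0.260 with flanks of 5 kb, −0.00222 against all adult regions, 0.0981 with flanks of 50 kb, 0.114 with q-values of at most 1e-05, 0.0783 with equal lists, 0.0737 without naked DNA regions, 0.0785 without regions within 1 kb of an embryonic peak, and −0.0178 to 0.0417 over the left-out libraries. Deviations of calls from the group mean over leg regions had correlations of −0.00645, −0.0362 and 0.0239 in same-numbered embryonic and adult leg libraries. Differently numbered libraries had −0.0428 to 0.0560. These values cannot show whether libraries of equal number share a preparation. With the replicate block, sign flips of the 3 differences gave an exact p of 0.25 for the left-out calls (difference 48.4 percentage points), the smallest that 3 pairs allow, and an exact p of 0.75 for the flanks (difference 0.0126). Backgrounds of adult leg 3 and the stage 23 embryo were the lowest, at 0.252 and 0.233; the part of depth in the calls was not tested.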
